A study of Mus musculus with 12 samples.

Results

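Insig1, Hmgcs1, Idi1, Fdft1, Sqle, Lss and Dhcr7 are target genes of SREBP2, the transcription factor that turns on cholesterol synthesis and uptake. These 7 genes were taken as a fixed list by gene symbol from the 27179 genes counted. Hippocampal neurons of newborn mice, labelled C57BL/6 (the study's methods name pups of the C57BL/6 and FVB strains at postnatal day 0), were grown on Transwell membranes, whose pores let neurites pass to the lower face while somas stay above, and were used at day 17 or 18 in culture. Control (Ctrl) cultures and cultures given MG132, a proteasome inhibitor, at 10 μM for 7 h were each split into somas and neurites, which makes 4 groups of 3 libraries. Total counts per library ran from 6799464 to 10052321 in Ctrl somas, from 5750510 to 9460135 in Ctrl neurites, from 4247610 to 18411436 in MG132 somas and from 6545752 to 22166347 in MG132 neurites. All 4 groups came from wild-type primary cultures with no transgene, and the neurite fraction is what crossed the membrane, so it can hold processes of any cell in the culture.

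Cholesterol is built from acetyl-CoA by way of mevalonate, isoprenoid units, squalene and lanosterol. When sterols in the endoplasmic reticulum membrane run low, SCAP escorts SREBP2 to the Golgi apparatus, where it is cleaved, and its released part enters the nucleus and activates genes of every stage of the pathway. INSIG1, itself a product of a target gene, holds SCAP back when sterols are plentiful and is removed through the proteasome when they are not. Brain cholesterol is made within the brain, in adult tissue mainly by glia, which hand it to neurons on apolipoprotein E.

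Of the 7 genes, 6 encode synthesis enzymes and Insig1 encodes the regulator. None of them is an uptake receptor, so uptake was read from a separate list. In GRCm38 coordinates the genes lie at chr5:28071412-28078662 (Insig1), chr13:119690351-119708260 (Hmgcs1), chr13:8885606-8892396 (Idi1), chr14:63145150-63181687 (Fdft1), chr15:59315092-59331193 (Sqle), chr10:76531565-76557139 (Lss) and chr7:143823167-143848410 (Dhcr7).

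SREBP2 reads a short sterol response element near the start of its target genes, usually beside sites for NF-Y and Sp1. RefSeq promoter windows of GRCm38.p6, from 250 bases before to 50 after the start, were at hand for 5 of the 7 genes, those for Sqle and Fdft1 being the exceptions. TCACNCCAC, a strict form of the element, was found on either strand in 1 of the 5 genes, Hmgcs1, and in 1.24% of all 32851 windows. The wider form CACNNCAC, which every match to the strict form also contains, was present in 3 of the 5 (Insig1, Hmgcs1 and Dhcr7) and in 16.2% of all windows. CCAAT, the NF-Y letters, and GGGCGG, the Sp1 letters, were each present in all 5 genes, against 37.4% and 35.7% of all windows. Dhcr7 has 3 windows in that table and was counted when any of them held the letters.

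The 250 bases before the start are shown for 2 of the listed genes, Insig1, whose mRNA rose with MG132, and Hmgcs1, whose change did not pass the test, and for Hsd17b7 and Msmo1, chosen because they hold a match. Hsd17b7 and Msmo1 are 2 of 4 enzymes of the later steps that rose in both fractions, and the windows of the other two, Cyp51 and Lbr, hold 0 matches to CACNNCAC. Of 17 genes with a window, synthesis enzymes and Insig1 together, 6 hold one. Each sequence reads 5′ to 3′ on the gene's own strand, and capitals mark CACNNCAC on either strand.
Insig1, chr5:28071162-28071411, plus strand: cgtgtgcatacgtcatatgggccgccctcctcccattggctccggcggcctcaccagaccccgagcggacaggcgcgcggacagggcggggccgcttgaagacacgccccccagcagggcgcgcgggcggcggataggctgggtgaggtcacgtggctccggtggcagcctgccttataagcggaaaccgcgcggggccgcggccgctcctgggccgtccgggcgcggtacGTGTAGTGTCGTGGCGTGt
Hmgcs1, chr13:119690101-119690350, plus strand: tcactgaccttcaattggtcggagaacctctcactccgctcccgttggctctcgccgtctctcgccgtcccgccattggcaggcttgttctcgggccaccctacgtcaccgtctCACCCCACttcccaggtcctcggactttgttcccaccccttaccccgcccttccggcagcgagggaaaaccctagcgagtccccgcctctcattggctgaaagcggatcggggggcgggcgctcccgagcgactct
Hsd17b7, chr1:169969206-169969455, minus strand: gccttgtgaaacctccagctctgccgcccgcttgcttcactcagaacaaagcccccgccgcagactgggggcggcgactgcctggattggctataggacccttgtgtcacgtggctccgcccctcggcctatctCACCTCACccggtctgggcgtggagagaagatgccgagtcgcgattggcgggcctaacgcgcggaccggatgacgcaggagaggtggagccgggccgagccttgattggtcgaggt
Msmo1, chr8:64733579-64733828, minus strand: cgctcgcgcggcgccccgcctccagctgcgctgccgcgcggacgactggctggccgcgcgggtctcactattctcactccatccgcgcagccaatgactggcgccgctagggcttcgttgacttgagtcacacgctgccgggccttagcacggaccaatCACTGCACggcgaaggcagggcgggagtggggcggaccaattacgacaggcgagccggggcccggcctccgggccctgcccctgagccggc

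In Insig1 the capitals hold 3 overlapping matches on the minus strand, which begin at positions -19, -14 and -9 from the start. The matches in Hmgcs1, Hsd17b7 and Msmo1 begin at -136, -116 and -91 and lie on the gene's own strand. A match is a description of the letters and not evidence of a bound site.

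MG132 raised heat shock mRNAs in every treated library, which checks the treatment labels. Hspa1a, the stress-induced HSP70, was between 0.44 and 2.22 CPM (counts per 1000000 of the library total, scaled by TMM factors) in the 6 Ctrl libraries and between 287 and 785 CPM in the 6 MG132 libraries, and the 4 heat shock genes examined (Hspa1a, Hspa1b, Dnajb1 and Hspa8) were all called higher in both fractions.

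MG132 raised Insig1 about 2.5-fold in somas and in neurites, while the 6 enzymes on the list were not called in either fraction. Hmgcs1, the most abundant of the 7 per kb of exon, Sqle and Dhcr7 had log2 fold changes near or below 0 in both, and Fdft1 and Idi1 had positive ones. A gene was called at an adjusted p under 0.05 in edgeR's quasi-likelihood test. In somas 1 of the 7 genes was called higher and 0 lower, where 15.5% of all 14185 tested genes were called higher and 11.9% lower. In neurites 1 of 7 was called higher and 0 lower, against 14.7% and 12.3% of all tested genes. The 7 genes had a median log2 fold change of 0.32 in somas and -0.01 in neurites, beside -0.07 and -0.16 over all tested genes. With a stricter rule, an adjusted p under 0.01 and a log2 fold change beyond 1.7, none of the 7 was called, where 2.11% of tested genes were called higher and 2.43% lower in somas, and 2.44% and 2.19% in neurites. The study's volcano plots mark changes over 1.7-fold, a smaller change than 1.7 on the log2 scale. Insig1 rose by more than 1.7-fold, at an adjusted p under 0.01, in both fractions.

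**Figure D1:**
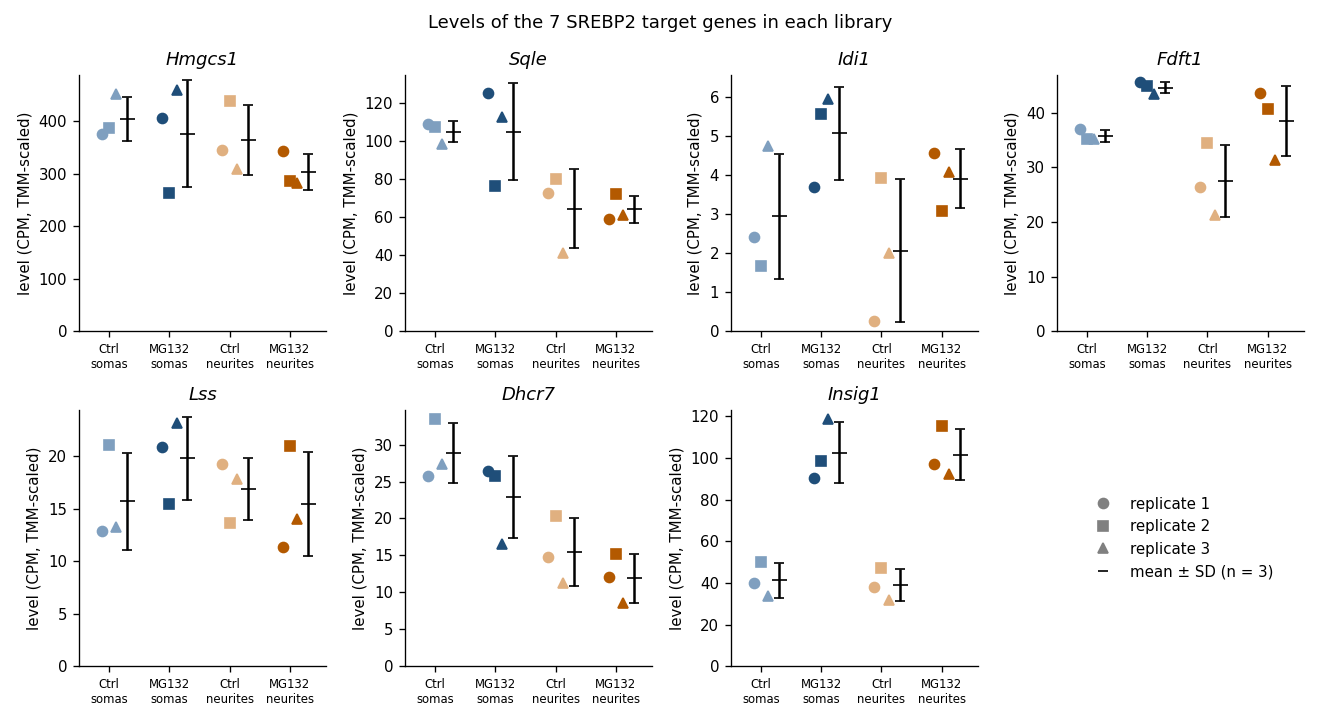
Levels of the 7 SREBP2 target genes in each library, in TMM-scaled CPM on axes that start at 0, with 1 symbol per replicate number and bars for the mean ± SD (n = 3). The Insig1 panel shows all 6 MG132 libraries, from 90.2 to 119 CPM, above all 6 Ctrl libraries, from 32.0 to 50.01 CPM, while the groups of most other panels overlap.

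Insig1 stood at 40.0, 50.01 and 33.6 CPM in replicates 1 to 3 of Ctrl somas and at 90.2, 98.6 and 119 CPM in MG132 somas. In neurites it was at 38.1, 47.3 and 32.0 CPM in Ctrl and at 97.0, 115 and 92.3 CPM with MG132. Every treated library was above every control library of the same fraction, with no overlap. The log2 fold change was 1.32 ± 0.20 (SE) in somas, or 2.49-fold with a 95% confidence interval of 1.85 to 3.35 (adjusted p = 0.000288), and 1.37 ± 0.20 in neurites, or 2.59-fold with an interval of 1.92 to 3.51 (adjusted p = 0.000191). Both calls were made in 6 of 6 fits that each left out 1 library, with log2 fold changes of 1.19 to 1.47 in somas and 1.27 to 1.56 in neurites. Only 0.877% of 75-base stretches of its transcript are shared with another annotated gene, so other loci could take few of its reads.

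Hmgcs1 encodes the synthase that makes HMG-CoA early in the pathway. Its levels were 375, 386 and 452 CPM in Ctrl somas and 405, 264 and 459.9 CPM in MG132 somas. In neurites they were 345, 439 and 309 CPM in Ctrl and 344, 285.5 and 282 CPM with MG132. The groups overlapped in both fractions, and the soma library labelled MG132 replicate 2, the shallowest of the 12, was the lowest of its group. The log2 fold change was -0.10 in somas, with an interval of -0.55 to 0.34, and -0.26 in neurites, with an interval of -0.71 to 0.18. Gm48342 overlaps 12.1% of its exon length and shares 12.2% of its 75-base stretches, so its counts are in part uncertain.

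Idi1, the isomerase that readies isoprenoid units for condensation, was the least abundant of the 7. Its levels were 2.42, 1.66 and 4.74 CPM in Ctrl somas against 3.70, 5.55 and 5.95 CPM in MG132 somas, and 0.265, 3.91 and 2.02 CPM in Ctrl neurites against 4.56, 3.07 and 4.08 CPM in MG132 neurites. The groups overlapped in both fractions, and 1 Ctrl neurite library rested on a single count. Its log2 fold changes of 0.79 in somas and 0.82 in neurites therefore carried wide intervals, from -0.60 to 2.17 and from -0.62 to 2.26, and a change as large as that of Insig1 lay within both. Of its 75-base stretches 29.1% are shared with 5 other annotated loci, so its counts are uncertain.

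Fdft1, squalene synthase, commits the pathway to sterols. It was at 36.9, 35.2 and 35.1 CPM in Ctrl somas and at 45.5, 44.8 and 43.4 CPM in MG132 somas. In neurites it was at 26.5, 34.4 and 21.4 CPM in Ctrl and at 43.6, 40.6 and 31.2 CPM with MG132. The soma groups did not overlap, and the neurite groups did. Neither difference was called, at log2 fold changes of 0.32 ± 0.20 in somas (adjusted p = 0.27) and 0.48 ± 0.21 in neurites (adjusted p = 0.0987 in edgeR's quasi-likelihood test). The neurite difference passed the test without Ctrl neurites replicate 2 (0.69, adjusted p = 0.0368) and without MG132 neurites replicate 3 (0.74, adjusted p = 0.0314). Exons of Ctsb overlap 18.3% of its exon length and 25.4% of its 75-base stretches are shared with other loci, so its counts too are uncertain.

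Sqle, squalene epoxidase, adds oxygen to squalene before the rings are closed. Its levels were 109, 107 and 98.5 CPM in Ctrl somas and 126, 76.3 and 113 CPM in MG132 somas. In neurites they were 72.5, 79.96 and 41.0 CPM in Ctrl and 58.9, 72.4 and 61.1 CPM with MG132. The groups overlapped in both fractions, around nearly equal means. The log2 fold changes were 0.00 in somas and -0.01 in neurites, and their intervals, from -0.50 to 0.50 and from -0.51 to 0.50, lay below the point estimates for Insig1.

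Lss, lanosterol synthase, forms the sterol rings. It was at 12.8, 21.1 and 13.2 CPM in Ctrl somas and at 20.9, 15.5 and 23.2 CPM in MG132 somas, and at 19.3, 13.6 and 17.8 CPM in Ctrl neurites and 11.4, 20.98 and 14.0 CPM in MG132 neurites. All groups overlapped, with log2 fold changes of 0.35 in somas (interval -0.28 to 0.97) and -0.10 in neurites (interval -0.74 to 0.54).

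Dhcr7 encodes the reductase of the pathway's final step in one of its branches. Its levels were 25.8, 33.5 and 27.4 CPM in Ctrl somas and 26.5, 25.8 and 16.5 CPM in MG132 somas. In neurites they were 14.8, 20.4 and 11.3 CPM in Ctrl and 12.1, 15.1 and 8.52 CPM with MG132. The treated and control groups overlapped in both fractions. The log2 fold change was -0.34 in somas (interval -0.95 to 0.27) and -0.37 in neurites (interval -1.001 to 0.265).

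**Figure D2:**
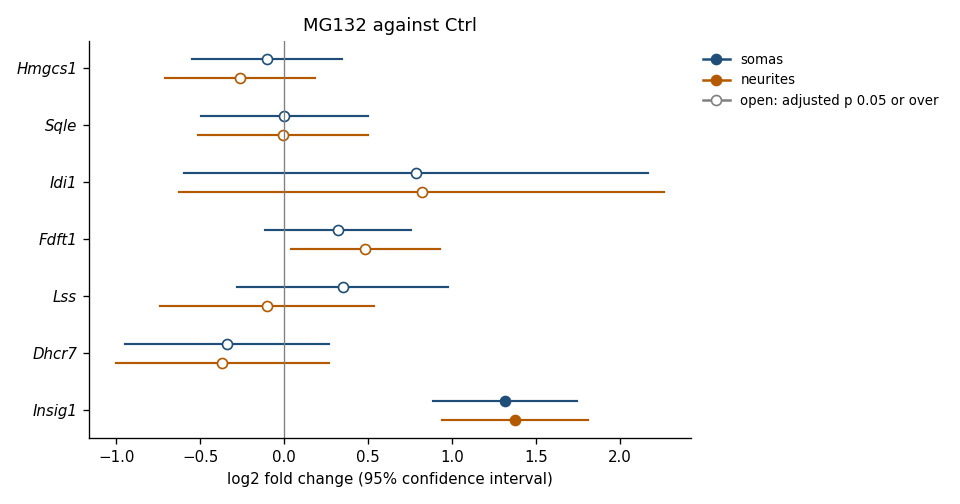
Log2 fold changes of the 7 genes with MG132 in somas and in neurites, with 95% confidence intervals and filled points for an adjusted p under 0.05. Insig1, at 1.32 in somas and 1.37 in neurites, is the filled pair, and the intervals of the other genes reach or cross 0 or rest just above it, as for Fdft1 in neurites (0.04 to 0.93).

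Whether the response to MG132 differed between the fractions was tested as the difference of both log2 fold changes. For Insig1 that difference, neurites minus somas, was 0.06 with an interval of -0.54 to 0.66. None of the 7 genes was called, and the lowest unadjusted p among them was 0.301, for Lss at -0.45 (interval -1.34 to 0.45). No gene of all those tested was called either, 0% in each direction by edgeR's quasi-likelihood test without a block. In that test 474 higher and 526 lower differences had an unadjusted p under 0.05. DESeq2 called 58 genes, and edgeR with the replicate number as a block called 47 higher and 43 lower. Differences within these intervals were not excluded, and larger ones could go uncalled with 3 libraries per group. In simulated data 0% of 200 genes given a difference of 1 on the log2 scale were recovered, and 62.5% of those given 2.

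Sqle and Dhcr7 mRNA was less abundant in neurites than in somas after MG132, and their ratios in Ctrl neurons, which were not called, had nearly the same size. In Ctrl neurons both genes were lower in every neurite library than in every soma library, with log2 ratios of -0.70 ± 0.24 for Sqle and -0.89 ± 0.29 for Dhcr7, and neither was called (adjusted p = 0.0592 and 0.0532). With the replicate number as a block, both passed (adjusted p = 0.0105 and 0.00576). DESeq2 called both as well (adjusted p = 0.0217 and 0.0262). After MG132 the ratios were -0.71 ± 0.24 and -0.92 ± 0.29, and both were called lower (adjusted p = 0.0499 and 0.0421), again with every neurite library below every soma library. These calls lay at the edge of the threshold: for Sqle the call was made in 1 of 6 fits that each left out 1 library, the fit without MG132 somas replicate 2, and for Dhcr7 in 2 of 6, those without MG132 neurites replicate 2 or MG132 somas replicate 3. Leaving out Ctrl neurites replicate 2 gave calls in Ctrl neurons for Sqle (adjusted p = 0.0383) and for Dhcr7 (adjusted p = 0.0331). Mitochondrial genes took a larger share of the counts in each neurite library than in the soma library of the same number, at 29.2%, 16.7% and 16.6% in Ctrl neurites against 17.1%, 13.9% and 13% in Ctrl somas, and at 29%, 13.5% and 21.3% against 16.1%, 12% and 9.78% after MG132. The part of this share in the ratios between fractions was not tested.

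Of the 7 genes, 0 were called higher and 0 lower in Ctrl neurites against Ctrl somas, where 10.2% of tested genes were called higher and 4.65% lower. In MG132 neurites against MG132 somas 0 were called higher and 2 lower, against 11.4% and 6.35% of tested genes. By the stricter rule none of the 7 was called, where 2.12% of genes were called higher and 0.338% lower in Ctrl neurons, and 2.04% and 0.508% in MG132 neurons. The median log2 ratio of the 7 genes was -0.38 in Ctrl and -0.35 in MG132 neurons, beside -0.04 and -0.08 over all tested genes. Insig1 had log2 ratios of -0.07 (interval -0.50 to 0.36) in Ctrl and -0.01 (interval -0.44 to 0.41) in MG132 neurons. Its TMM-scaled levels in the fractions thus lay close together before and after treatment. That holds for this scaling only, as library totals lowered the median ratio of all genes (given below). Hmgcs1 (-0.15 and -0.31), Idi1 (-0.42 and -0.39), Fdft1 (-0.38 and -0.21) and Lss (0.10 and -0.35) were not called in Ctrl or MG132 neurons, and the sign for Lss in Ctrl neurons turned to -0.59 when library totals replaced TMM factors. With library totals 0 of the 7 were called higher and 3 lower in Ctrl neurites, with a median of -0.95. After MG132 0 were higher and 5 lower, with a median of -1.13. Of all tested genes that scaling called 2.28% higher and 19.3% lower in Ctrl neurites, and 2.11% and 30.6% in MG132 neurites. The replicate block called 0 of the 7 higher and 2 lower in each comparison. Its shares of all tested genes were 13.7% and 9.28% in Ctrl, and 15.1% and 11.7% in MG132 neurites. That change of scaling to library totals moved the median of all genes from -0.04 to -0.70 in Ctrl and from -0.08 to -0.86 in MG132 neurons. Relative to that median the ratios of Sqle and Dhcr7 were -0.68 and -0.84 in Ctrl and -0.63 and -0.78 in MG132 neurons. These comparisons use the same libraries as those of MG132 against Ctrl and are not independent of them.

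**Figure D3:**
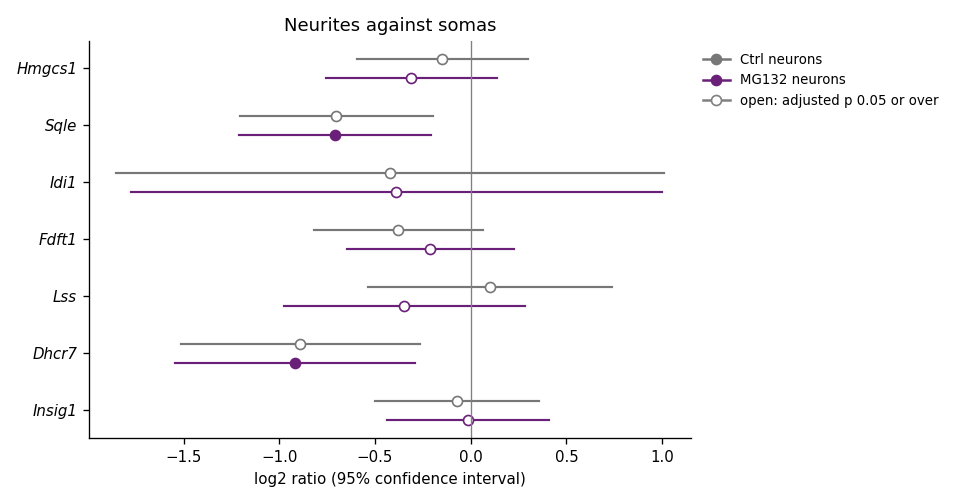
Log2 ratios of neurites to somas for the 7 genes in Ctrl and in MG132 neurons, with 95% confidence intervals and filled points for an adjusted p under 0.05. Sqle and Dhcr7 lie furthest to the left, between -0.70 and -0.92, and Insig1 lies at -0.07 and -0.01.

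Scaled to exon length, levels in Ctrl somas ran from Hmgcs1 at 88.1 ± 9.05 CPM per kb (SD, n = 3) through Sqle at 18.9 ± 1.03, Insig1 at 13.3 ± 2.67, Fdft1 at 8.45 ± 0.25 and Dhcr7 at 4.96 ± 0.70 to Lss at 1.46 ± 0.43 and Idi1 at 0.839 ± 0.458. Neighbours in this order did not overlap except for Lss and Idi1. Exon length here joins the exons of all transcripts of a gene, and the order of near neighbours depends on that choice. It came to 5817 bases for Dhcr7, 10787 for Lss and 4227 for Fdft1, whose longest transcripts have 2815, 6992 and 3698 bases. The order by longest transcript was not examined. In Ctrl neurites Insig1 (12.6 ± 2.50 CPM per kb), Sqle (11.6 ± 3.73) and Fdft1 (6.49 ± 1.56) overlapped one with the next. With MG132 Insig1 had the second highest level in both fractions, at 33.1 ± 4.76 CPM per kb in somas, where it had been the third, and 32.8 ± 3.93 in neurites, where it had been the second, and lay above all values of Sqle (18.9 ± 4.60 and 11.6 ± 1.31). Hmgcs1 stayed the highest, at 81.9 ± 22.0 and 66.1 ± 7.53 CPM per kb.

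Other enzymes of cholesterol synthesis, of which 13 outside the list of 7 are reported here, moved in both directions with MG132. In somas 4 of 13 rose and 2 fell, where 15.5% of all tested genes were called higher and 11.9% lower, and in neurites 4 rose and 2 fell, against 14.7% and 12.3%. The median log2 fold changes were 0.34 and -0.06. With library totals in place of TMM factors 3 rose and 0 fell in somas (7.55% and 7.32% of all tested genes), and 1, Hsd17b7, rose and 0 fell in neurites (6.61% and 9.42%). Msmo1 and Cyp51, which remove methyl groups from lanosterol and its products, rose by 0.88 and 1.23 on the log2 scale in somas and by 1.12 and 0.96 in neurites. Lbr, a sterol reductase that also anchors chromatin to the nuclear envelope, rose by 1.39 and 0.90. With library totals Msmo1 was not called in somas or neurites (adjusted p = 0.0854 and 0.0545), nor were Cyp51 and Lbr in neurites (adjusted p = 0.102 and 0.189).

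Hsd17b7, a ketoreductase of the same late steps, had the largest increase among these enzymes. It was at 58.6, 53.9 and 113 CPM in Ctrl somas and at 169.9, 127 and 505 CPM in MG132 somas, and at 32.3, 42.4 and 62.2 CPM in Ctrl neurites and 134, 164 and 273 CPM in MG132 neurites. All treated libraries lay above all controls of their fraction, with replicate 3 the highest in all 4 groups. Its log2 fold changes were 1.83 ± 0.46 in somas (adjusted p = 0.00852) and 2.06 ± 0.47 in neurites (adjusted p = 0.00452). The soma value dropped to 0.99 (adjusted p = 0.0599) without MG132 somas replicate 3.

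The enzymes that fell were Acat2, the thiolase before Hmgcs1, in both fractions (-0.80 in somas, adjusted p = 0.0471, and -0.92 in neurites, adjusted p = 0.0282), Ebp, a sterol isomerase, in somas (-1.04, adjusted p = 0.0147), and Mvk, mevalonate kinase, in neurites (-1.28, adjusted p = 0.0447). Acat2 shares 40.7% of its 75-base stretches with Acat3 and Tcp1, and its soma call was made in 0 of 6 fits that each left out 1 library. The call for Ebp was made in 4 of 6, that for Acat2 in neurites in 2 of 6, that for Mvk in 1 of 6 and that for Lbr in neurites in 2 of 6.

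Taken in pathway order, the 19 enzymes reported here (6 of them from the list of 7) were counted by stage, and the stages were not tested against one another. Of the 7 counted that lead from acetyl-CoA to farnesyl units, none rose and 1 fell in somas and none rose and 2 fell in neurites. Of the 3 that lead from farnesyl units to lanosterol (Fdft1, Sqle and Lss), none was called. Of the 9 counted that lead from lanosterol to cholesterol, 4 rose and 1 fell in somas and 4 rose and none fell in neurites, beside the shares of all tested genes given above. Only Hsd17b7 of those 4 was also called in neurites with library totals.

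**Figure D4:**
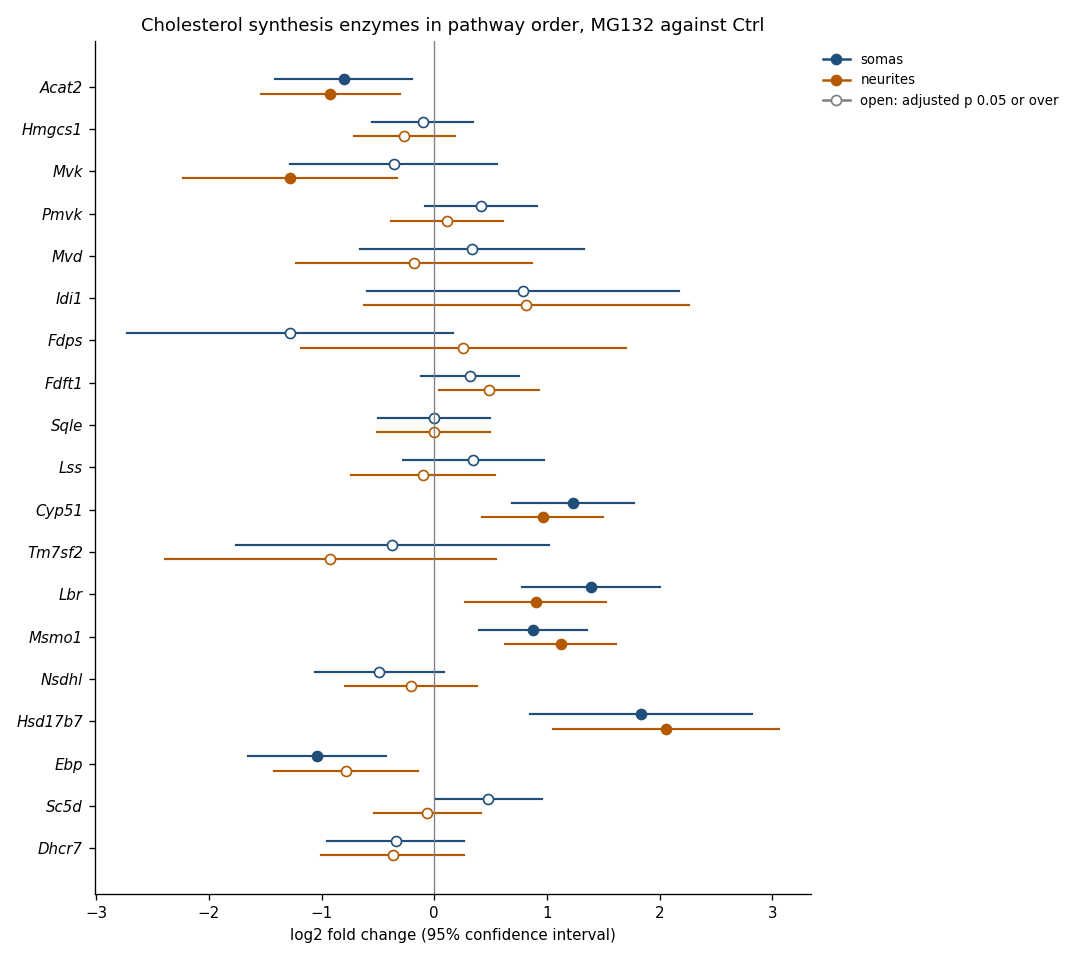
Log2 fold changes with MG132 for 19 cholesterol synthesis enzymes in pathway order from top to bottom, in somas and neurites, with 95% confidence intervals and filled points for an adjusted p under 0.05. Filled points to the right are Cyp51, Lbr, Msmo1 and Hsd17b7, and the block from Fdft1 to Lss holds open points.

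Between fractions 2 of the 13 enzymes were called higher and 0 lower in Ctrl neurites, where 10.2% of all tested genes were called higher and 4.65% lower, and none was called in MG132 neurons, against 11.4% and 6.35%. With the replicate block 2 were higher and 2 lower in Ctrl neurites (13.7% and 9.28% of all tested genes), and with library totals 0 were higher and 4 lower in Ctrl and 0 higher and 5 lower in MG132 neurites, where that scaling called 19.3% and 30.6% of all tested genes lower. Pmvk and Sc5d were higher in Ctrl neurites (0.87 and 0.75, adjusted p = 0.0209 and 0.0345), but with library totals in place of TMM factors their ratios were 0.20 and 0.05 and neither was called. Of 6 fits that each left out 1 library, each of these calls was made in 1.

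Of 10 genes of cholesterol uptake and intracellular transport reported here, 9 were tested, and with MG132 1 rose in somas and 1 fell in neurites, where 15.5% of all tested genes rose in somas and 12.3% fell in neurites. Npc1, which carries cholesterol out of lysosomes, rose in somas (0.65 ± 0.17, adjusted p = 0.0105) and was lower in neurites than in somas both in Ctrl (-0.71) and in MG132 neurons (-1.08, adjusted p = 0.000462). Lipa, the lysosomal lipase that frees cholesterol from its esters, was lower in MG132 neurites than in MG132 somas (-0.72, adjusted p = 0.0386). Lrp1, a receptor for apolipoprotein E, fell in neurites with MG132 (-0.94, adjusted p = 0.0218). Of 6 fits that each left out 1 library, the call for Npc1 in somas was made in 5 (not without Ctrl somas replicate 1, adjusted p = 0.0534, and not with library totals, adjusted p = 0.151), that for Lipa in 1 and that for Lrp1 in 4, while the calls for Npc1 between fractions were made in all 6. With the replicate block 1 gene of this list rose and 1 fell in somas and 0 rose and 3 fell in neurites, where 17.4% and 18.1% of all tested genes fell, and 4 were higher and 1 lower in Ctrl neurites than in Ctrl somas, against 13.7% and 9.28%. Without the block 0 were higher and 1 lower there, where 10.2% and 4.65% of all tested genes were, and with library totals 0 were higher and 4 lower in Ctrl and 0 higher and 5 lower in MG132 neurites, against 19.3% and 30.6% of all tested genes lower.

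Among the genes of the SREBP machinery the mRNAs of the 2 transcription factors moved apart. Srebf2, which encodes SREBP2, was at 76.5, 85.7 and 58.9 CPM in Ctrl somas and 81.2, 64.6 and 70.8 CPM in MG132 somas, with overlapping groups and a log2 fold change of -0.03 ± 0.18. In neurites its log2 fold change was -0.05 ± 0.19. Srebf1, which encodes the factor of fatty acid synthesis, fell in both fractions, from 39.4, 69.4 and 91.2 CPM to 12.6, 16.7 and 15.8 CPM in somas and from 26.7, 46.7 and 69.5 CPM to 5.5, 9.0 and 11.4 CPM in neurites. All treated libraries were below all controls of their fraction, and the log2 fold changes were -2.15 ± 0.36 (adjusted p = 0.000601) and -2.46 ± 0.38 (adjusted p = 0.000254).

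Insig2, the paralogue of Insig1, was not called with MG132, at 0.21 ± 0.22 in somas and 0.06 ± 0.22 in neurites, and neither was Scap, at -0.15 ± 0.21 and -0.44 ± 0.22. Faf2 and Ubxn4, which help draw membrane proteins out for proteasomal degradation, rose in both fractions: Faf2 by 1.15 in somas and by 1.02 in neurites, and Ubxn4 by 1.15 and by 1.66. Rnf145, a ubiquitin ligase, fell in neurites (-0.88, adjusted p = 0.00607, or 0.0536 with library totals). Of the 11 genes in this list 2 rose and 1 fell in somas, where 15.5% of all tested genes rose and 11.9% fell, and 2 rose and 2 fell in neurites, against 14.7% and 12.3%. Between fractions Rnf139, another ligase, was lower in neurites (-1.01 in Ctrl and -0.77 in MG132 neurons), Mbtps2, a protease that cleaves SREBPs, was lower in Ctrl neurites (-0.9998), and Scap was lower in MG132 neurites (-0.73, adjusted p = 0.0301). Srebf2 had ratios of -0.47 in Ctrl and -0.49 in MG132 neurons (adjusted p = 0.108 and 0.0793, or 0.039 and 0.0205 with the replicate block). With 1 library left out at a time, the calls between fractions were made in 6 and 2 of 6 fits for Rnf139, in 2 of 6 for Mbtps2 and in 1 of 6 for Scap. In all 1 gene of this list was higher and 2 lower in neurites in Ctrl and in MG132 neurons, where 10.2% and 4.65%, and 11.4% and 6.35%, of all tested genes were. The replicate block called 1 higher and 3 lower in Ctrl (13.7% and 9.28%), and 2 higher and 5 lower in MG132 neurites (15.1% and 11.7%). With library totals 0 were higher, and 5 were lower in Ctrl and 9 in MG132 neurons, against 19.3% and 30.6% of all tested genes. Ubxn4 was higher in neurites with TMM factors (0.62 in Ctrl and 1.13 in MG132 neurons, called in 1 and 6 of 6 such fits), which turned to -0.02 in Ctrl with library totals and was 0.36 (adjusted p = 0.237) without Ctrl neurites replicate 3.

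Fatty acid synthesis, the branch under SREBP1, had no gene called higher with MG132, while 4 of 11 fell in somas and 2 of 11 in neurites, against 11.9% and 12.3% of all tested genes. With the replicate block 4 fell in each fraction (17.4% and 18.1% of all tested genes), and with library totals 2 fell in each (7.32% and 9.42%). Gpam, the first acyltransferase of triglyceride synthesis, fell in somas from 81.5, 101 and 128 CPM to 11.5, 18.8 and 12.9 CPM and by 2.83 on the log2 scale in neurites. Its soma log2 fold change was -2.86 ± 0.28 (adjusted p = 7.93e-06). Scd2, a desaturase, fell in both fractions (-1.04 and -1.14), and Fads1 and Fads2, desaturases of polyunsaturated fatty acids, fell in somas (-0.67 and -0.92, called in 3 and 5 of 6 fits that each left out 1 library, and neither with library totals).

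The same branch was unequally shared between the fractions, with 5 of 11 genes higher and 1 lower in Ctrl neurites than in Ctrl somas, where 10.2% and 4.65% of all tested genes were, and 5 higher and 2 lower after MG132, against 11.4% and 6.35%. With library totals 3 were higher and 3 lower in Ctrl (2.28% and 19.3% of all tested genes), and 4 higher and 5 lower after MG132 (2.11% and 30.6%). The replicate block called 5 higher and 2 lower in Ctrl (13.7% and 9.28%), and 5 higher and 3 lower after MG132 (15.1% and 11.7%). Scd1 was at 146, 134 and 229 CPM in Ctrl somas and at 1762, 1244 and 1992 CPM in Ctrl neurites (log2 ratio 3.29 ± 0.25, adjusted p = 1.36e-06, and 3.07 after MG132). Me1 (1.76), Fads1 (1.78), Fads2 (1.60) and Scd2 (1.18) were also higher in Ctrl neurites, of which Fads2 and Scd2 were not called with library totals. Elovl6 was lower in neurites (-0.91 in Ctrl and -0.79 in MG132 neurons, called in 5 and 1 of 6 fits that each left out 1 library), and Fasn was lower in MG132 neurites (-0.58, adjusted p = 0.0441, called in 0 of 6 such fits).

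In the isoprenoid branch, which leads from farnesyl units to dolichol, ubiquinone and protein prenylation, 1 of 9 genes rose and 1 fell in somas, where 15.5% and 11.9% of all tested genes did, and 2 rose and none fell in neurites, against 14.7% and 12.3%. With library totals 1 rose and 0 fell in somas (7.55% and 7.32% of all tested genes) and none of the 9 was called in neurites (6.61% and 9.42%). Pggt1b, a subunit of a geranylgeranyl transferase, rose by 1.46 in somas and by 0.80 in neurites, and Coq2 of ubiquinone synthesis fell in somas (-1.04, adjusted p = 0.00999, or 0.0632 with library totals). Pdss1 was called in neurites at 3.24 ± 1.05, from 0.00, 0.45 and 0.34 CPM to 0.68, 4.11 and 3.73 CPM, and that call was made in 1 of 6 fits that each left out 1 library. Coq2 (1.37 and 1.80) was higher in neurites than in somas in Ctrl and MG132 neurons, and so was Nus1 (0.73 and 0.58, called in 2 and 1 of 6 fits that each left out 1 library). Pggt1b was higher in Ctrl neurites (1.09) and Fnta in MG132 neurites (1.20). With library totals 0 of the 9 genes were called higher and 1 lower in Ctrl neurites, and 1, Coq2, was called higher and 3 lower in MG132 neurites, where 19.3% and 30.6% of all tested genes were lower, and the ratio of Nus1 in MG132 neurons turned to -0.23.

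Of 10 genes of efflux, esterification and turnover, 9 were tested, of which 1 rose and none fell in somas and none was called in neurites, where 15.5% and 14.7% of all tested genes rose and 11.9% and 12.3% fell. With the replicate block 2 fell in somas and 3 in neurites, against 17.4% and 18.1% of all tested genes. The gene that rose, Nr1h2, encodes a liver X receptor, and it went from 8.1, 9.1 and 5.8 CPM to 24.05, 27.2 and 20.6 CPM in somas (1.63 ± 0.45, adjusted p = 0.0142, or 0.0543 without Ctrl somas replicate 3). Abcg4, a sterol transporter, was lower in neurites than in somas in Ctrl (-1.72, adjusted p = 0.0121) and in MG132 neurons (-2.30, adjusted p = 0.00218). The call in Ctrl neurons was lost without Ctrl neurites replicate 2 (adjusted p = 0.0531) or replicate 3 (adjusted p = 0.0502). Without the block Abcg4 was the 1 gene of this list that edgeR called between fractions. Of all tested genes 4.65% were lower in Ctrl and 6.35% in MG132 neurites. The replicate block called 4 genes of the list lower in Ctrl and 4 in MG132 neurites, against 9.28% and 11.7%. With library totals 3 and 7 genes of the list were lower, against 19.3% and 30.6%.

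Of the glial markers, many were lower with MG132, and astrocyte markers also differed between fractions, in both directions. In these bulk libraries fewer cells of a type and less RNA per cell cannot be told apart. Neuronal markers summed to between 1065 and 1598 CPM in Ctrl somas and between 827 and 1380 CPM after MG132, and to between 928 and 1697 CPM in Ctrl neurites and between 826 and 1500 CPM after MG132. None of the 8 was called with MG132 (0 higher and 2 lower in neurites, and 0 and 1 in somas, with the replicate block, which called 18.1% and 17.4% of all tested genes lower). Between fractions 1 of the 8, Map2, the most abundant by mean CPM not scaled to length, was called higher in neurites (0.95 in Ctrl neurons and 1.02 after MG132). The other 7 had negative ratios, of which Syt1 was called lower in Ctrl (-1.29) and Syt1 and Gad1 in MG132 neurons (-1.29 and -1.23). Among all tested genes 10.2% were called higher and 4.65% lower in Ctrl, and 11.4% and 6.35% in MG132 neurites. The replicate block called 1 of the 8 higher and 3 lower in Ctrl and in MG132 neurites. Its shares of all tested genes were 13.7% and 9.28% in Ctrl, and 15.1% and 11.7% in MG132 neurites. The medians of the 8 were -0.39 and -0.36, and with library totals 0 were higher and 5 and 6 lower, against 19.3% and 30.6% of all tested genes lower.

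Astrocyte markers summed to between 4828 and 5978 CPM in Ctrl somas and between 2514 and 3309 CPM after MG132, and to between 20563 and 25761 CPM in Ctrl neurites and between 9579 and 19691 CPM after MG132. Gfap, the intermediate filament of astrocytes, made up most of the neurite sum and was higher in neurites by 3.18 in Ctrl and 3.14 in MG132 neurons, while the 8 markers went in both directions. In Ctrl neurites 3 were called higher and 1, Gja1, lower (-1.08), with a median of -0.01, where 10.2% and 4.65% of all tested genes were called, and in MG132 neurites 4 were called higher and 1 lower, with a median of 0.73, against 11.4% and 6.35%. The replicate block called 3 higher and 1 lower in Ctrl neurites, and 6 higher and 2 lower in MG132 neurites. Its shares of all tested genes were 13.7% and 9.28% in Ctrl, and 15.1% and 11.7% in MG132 neurites. With library totals 1, Gfap, was higher and 3 and 2 were lower, against 19.3% and 30.6% of all tested genes lower. With MG132 6 of 8 astrocyte markers fell in somas and 3 of 8 in neurites, against 11.9% and 12.3% of all tested genes. With the replicate block 8 and 6 fell, against 17.4% and 18.1%.

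Oligodendrocyte lineage markers, of which Mbp was the most abundant in neurites, summed to between 996 and 4215 CPM in Ctrl somas and between 359.5 and 3789 CPM after MG132, and to between 4498 and 20691 CPM in Ctrl neurites and between 2589 and 14687 CPM after MG132. With MG132 5 of 10 fell in each fraction, against 11.9% and 12.3% of all tested genes, and with the replicate block 9 fell in somas and 10 in neurites, against 17.4% and 18.1%. Between fractions 1 was called higher and 0 lower in Ctrl neurites, where 10.2% and 4.65% of all tested genes were. In MG132 neurites none was called, against 11.4% and 6.35%. The medians were 0.13 in Ctrl and 0.09 in MG132 neurons. The replicate block called 3 higher and 0 lower in Ctrl neurites, against 13.7% and 9.28%. After MG132 it called 2 higher and 2 lower, against 15.1% and 11.7%. Library totals gave 1 higher and 0 lower in Ctrl, and 0 higher and 2 lower in MG132 neurites. That scaling called 19.3% and 30.6% of all tested genes lower. Microglia markers summed to between 556 and 701 CPM in Ctrl somas and between 144 and 269 CPM after MG132, and to between 545 and 1100 CPM in Ctrl neurites and between 85.3 and 206 CPM after MG132. Of 7, 3 fell in somas and 6 in neurites, against 11.9% and 12.3% of all tested genes. With the replicate block 7 fell in each, against 17.4% and 18.1%. Between fractions 1 was called higher and 0 lower in Ctrl neurites (10.2% and 4.65% of all tested genes). None was called in MG132 neurites (11.4% and 6.35%). The replicate block called 1 higher and 1 lower in Ctrl (13.7% and 9.28%) and none in MG132 neurites. Library totals gave 0 higher and 1 lower in Ctrl, and 0 higher and 4 lower in MG132 neurites, against 19.3% and 30.6% lower. Among the microglia markers that fell with MG132 was Cx3cr1, the most abundant of them in Ctrl somas by mean CPM, not scaled to length (-5.77 in somas and -5.88 in neurites). No marker of any of these lists was at 0 counts in any library, so glial RNA was present in both fractions of every group.

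Insig1 thus rose in libraries in which most glial markers were lower, and Sqle and Dhcr7 were lower in neurite libraries in which astrocyte markers were higher or lower by gene. The part of these markers in the results for the 7 genes was not tested.

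**Figure D5:**
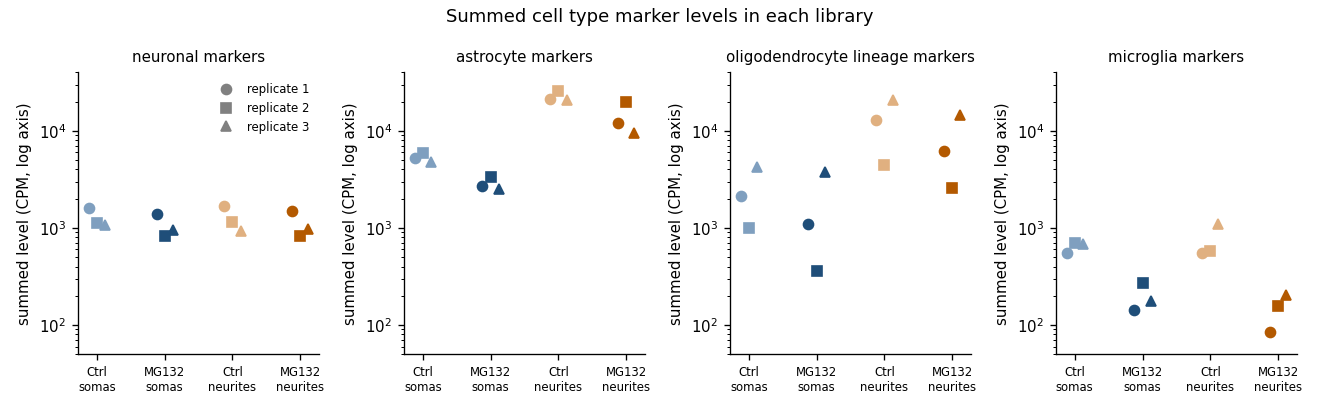
Summed CPM of neuronal, astrocyte, oligodendrocyte lineage and microglia markers in each of the 12 libraries, on a log axis, with 1 symbol per replicate number. Astrocyte sums are highest in Ctrl neurites (20563 to 25761 CPM), microglia sums are lower in MG132 libraries of both fractions, and oligodendrocyte sums differ several-fold between replicate numbers.

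Across the 12 libraries the 7 genes did not share one pattern. Pearson's r between log2 CPM values of pairs of them ran from -0.28 (Hmgcs1 and Insig1) to 0.77 (Dhcr7 and Sqle), with 0.72 for Fdft1 and Insig1. Of 10293 other tested genes that averaged 5 CPM or more, the 5 whose log2 CPM followed the mean of the 7 scaled genes most closely were Dyrk3 (r = 0.95), Vars (0.93), Gprasp2 (0.92), Zfp280c (0.91) and Dclre1c (0.91). Of the other synthesis enzymes that rose in both fractions, Msmo1 stood at rank 133 (0.80), Lbr at 1409 (0.56), Hsd17b7 at 1955 (0.49) and Cyp51 at 2664 (0.41), and Pmvk stood at 8170 (-0.46). These correlations describe 12 libraries that share treatment, fraction and depth differences.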

How the data were processed

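Poly(A) RNA from somas and neurites was sequenced in 12 libraries. The authors trimmed reads with Trimmomatic 0.38.0, aligned them to mm10 with STAR and deposited whole-number counts per Entrez gene from featureCounts 2.0.1, per the study's methods with default settings, so strand was not used. Of 27179 genes, 93.0% matched a symbol. Counts were compared with edgeR 4.0.16 in R 4.3.3: TMM factors, filterByExpr (14185 genes kept), 1 model of 4 group means and the quasi-likelihood F test, with Benjamini-Hochberg adjustment over all tested genes. Confidence intervals are the log2 fold change ± the t quantile times its SE. CPM values are TMM-scaled. The script was checked on simulated data with 200 changed genes. At a log2 change of 1 with MG132 it recovered 28.5% of them in somas and 19% in neurites. At a log2 change of 2 it recovered 80.5% and 82.5%. A gene that was not called may therefore still have changed. Alternatives were DESeq2 1.42.0, its size factors, library totals without TMM, no filter, a minimum of 10 counts in each library, a fit on the groups compared alone, a replicate block, each library left out and a stricter threshold.

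The labels number replicates 1 to 3 in each group without saying what a number shares. Deviations of same-numbered libraries from their group means correlated above 0.1 for every pair in each comparison of 2 groups (mean r 0.19 to 0.23). The numbers were taken as pairs there, from the data alone. The main model nevertheless holds no term for the replicate number, so its calls leave this pairing out. Calls that use the pairing are those given for the replicate block. Neither the labels nor the study's methods say whether replicate numbers stand for separate cultures. The p-values measure the spread between these libraries, and whether it is technical or between cultures was not tested. Sums of oligodendrocyte lineage markers were highest in replicate 3 and lowest in replicate 2 in all 4 groups. In Ctrl somas they were 2122, 996 and 4215 CPM in replicates 1 to 3. No 2 of the 12 libraries had identical counts.

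The 7 genes, the other lists and the tests were chosen with earlier results of these data known. The genes named were the 7, then from each pathway list up to 3 called genes with the largest increase and 3 with the largest decrease in each comparison, with Srebf2, Srebf1, Scap and Insig2 always given. Other genes of counts of 5 or fewer (such as Msmo1 in somas, and Cyp51 and Lbr in neurites) were added after their values were seen. Some genes of these lists are not reported here and were left out of the counts and sums of the lists. Promoters and 75-base stretches were read from RefSeq (GRCm38.p6) and GENCODE M21 transcripts.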

Additional observations from a re-analysis of the deposited data

How the results depend on the processing

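Insig1 was called higher with MG132 in both fractions under each alternative with the 0.05 threshold and with each library left out. With the stricter threshold none of the 7 genes was called (0 in each comparison). The small number of libraries per group, low counts for Idi1 and shared sequence for Hmgcs1, Idi1, Fdft1 and Acat2 limit the other values. The cause of the changes below was not tested.

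Library totals without TMM factors gave 1071 genes higher and 1039 lower with MG132 in somas, 937 higher in neurites, 323 higher and 2741 lower in Ctrl neurites against somas, and 300 higher and 4340 lower after MG132, with 3 and 5 of the 7 genes called lower between fractions. DESeq2 size factors, DESeq2, no count filter, at least 10 counts in every library and the replicate block each called 2 of the 7, Sqle and Dhcr7, lower in Ctrl neurites, and the fit on only the groups compared called 1 lower in MG132 neurites. DESeq2 called 1107 genes lower in Ctrl neurites and 38 higher and 20 lower for the difference of responses, for which no filter gave 9 higher. The stricter threshold left 299 higher and 345 lower in somas, 346 and 311 in neurites, 301 and 48 between fractions in Ctrl and 290 and 72 in MG132 neurons.

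The replicate block gave 1316 genes lower between fractions in Ctrl and 1660 in MG132 neurons. For the difference of responses it called 47 higher and 43 lower, of the listed genes only Aqp4, an astrocyte marker (higher). Over the 18 same-numbered pairs of that comparison the mean correlation was 0.199. The lowest, 0.0972 for replicate 2 of Ctrl neurites and MG132 somas, lay under the 0.1 asked of every pair. By that rule alone the numbers were not taken as pairs there, although the libraries are the same as in the other comparisons. With the block the log2 fold change of Sqle was 0.0167 in neurites and its difference 0.0038. It changed no other call of the 7 genes than those given.

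With 1 library left out, genes called lower ranged from 1117 to 1365 (MG132, somas), 1025 to 1416 (MG132, neurites), 427 to 613 (fractions, Ctrl) and 366 to 748 (fractions, MG132), genes higher from 954 to 1358 (fractions, Ctrl) and from 0 to 1 (difference), and those of the 7 called from 1 to 2 higher (MG132, neurites) and from 0 to 2 (Ctrl) and 0 to 1 (MG132) lower between fractions.

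Signs turned for values near 0 that were not called. Sqle with MG132 in somas was -0.0603 with DESeq2 size factors, -0.0604 with DESeq2, -0.0157 with library totals and -0.10 with the 10-count filter, and in neurites 0.14 with no filter and 0.0215 on only the groups compared. Its difference of responses was 0.0306 with DESeq2 size factors, 0.0314 with DESeq2 and 0.12 with no filter. Lss was 0.0342 (neurites, no filter) and -0.59 (Ctrl fractions, library totals), Insig1 between MG132 fractions 0.0375 (no filter) and 0.0157 (groups compared), and the differences -0.25 for Idi1 and -0.0325 for Insig1 with library totals and 0.0893 for Dhcr7 with no filter. With 1 library left out, ranges that crossed 0 were, with MG132, -0.26 to 0.10 for Hmgcs1 and -0.15 to 0.19 for Sqle in somas, and -0.13 to 0.19 for Sqle and -0.40 to 0.0809 for Lss in neurites. Between fractions they were -1.25 to 0.0357 for Idi1, -0.0873 to 0.29 for Lss and -0.27 to 0.0104 for Insig1 in Ctrl, and -0.12 to 0.16 for Insig1 in MG132 neurons. For the difference they were -0.37 to 0.0664 (Hmgcs1), -0.19 to 0.22 (Sqle), -0.43 to 0.87 (Idi1), -0.26 to 0.27 (Dhcr7) and -0.0502 to 0.30 (Insig1).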
